A study of Mus musculus with 6 samples.

Results

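Kidney mRNA of 8 genes of cholesterol handling was compared between a day-0 group of mice and a day-21 group gavaged with adenine and potassium oxonate. The genes were Hmgcs1, Idi1, Fdft1, Sqle and Lss, which encode enzymes of cholesterol synthesis, Srebf2 and Insig1, which regulate that synthesis, and Abca1, which exports cholesterol. They were found by the GENCODE M21 symbol of each Ensembl identifier, and all 8 were present among the 55450 genes listed and among the 16592 genes with enough counts to be tested. All animals were wild-type C57BL/6J male mice, bought at 7 weeks of age and kept for 1 week before the start. The day-0 group of 3 mice is the control and is labelled with 20% PEG. The day-21 group of 3 mice had received 0.16 g/kg adenine, a purine that injures the tubules, with 2.4 g/kg potassium oxonate, an inhibitor of urate breakdown, every day. The comparison asks what differs between the kidneys of the control group and those of this model of hyperuricemic kidney disease. The groups differ at once in treatment, in the labelled vehicle and in the day of sampling, and with that day in age. The parts of adenine, oxonate, repeated gavage, vehicle and age cannot be told apart.

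Cholesterol is built from acetyl-CoA. The mevalonate arm makes 5-carbon isoprenoid units and joins them into farnesyl diphosphate, and the sterol arm starts when squalene synthase commits farnesyl diphosphate to sterols. The genes of both arms share a regulator. When sterols in the endoplasmic reticulum are scarce, SCAP carries SREBP-2 to the Golgi, where proteases release its active fragment, and when sterols are abundant INSIG proteins hold SCAP back. Efflux is under the opposite kind of control: oxysterols activate the LXR receptors, which switch on Abca1 and Abcg1. The proximal tubule of the kidney takes up filtered lipoproteins and proteins and also makes its own sterols.

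Libraries held 10963849 to 14333311 counts, and levels are given as CPM, a share of the library total after TMM scaling, which allows for differences in library composition. A floor of 3 counts corresponds to between 0.179 and 0.309 CPM, and every one of the 8 genes lay far above it. A gene was called at an adjusted p under 0.05 (edgeR quasi-likelihood test, Benjamini-Hochberg over all genes tested) and a fold over 1.5, and over all genes tested the median log2 change was 0.03. The kidney label fitted the marker genes on day 0, when 8 proximal tubule markers summed to between 11032 and 12402 CPM. On day 21 the same sum lay between 2315 and 2947 CPM, with 8 of 8 markers lower, and the loop and distal tubule markers, 4 of 5 of them lower, went from 6906 to 8034 CPM on day 0 to between 4121 and 4730 CPM. Macrophage markers rose from between 165 and 212 to between 934 and 1257 CPM, with 8 of 8 higher, fibroblast markers from between 198 and 336 to between 1138 and 2150 CPM, with 6 of 6 higher, and T cell markers from between 3.81 and 9.64 to between 24.5 and 27.4 CPM, with 6 of 6 higher. Of 5 endothelial markers 1 was lower, their sums being 349 to 399 and 182 to 303 CPM. The mitochondrially encoded share of counts was 9.39 to 9.86% on day 0 and 3.82 to 4.42% on day 21, and leaving these genes out of the library totals changed no call of the 8 genes. In whole kidney, fewer cells of a type and less RNA per cell cannot be told apart, and the part of these cell types in the results that follow was not tested.

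Of the 8 genes, 5 were lower on day 21 (Hmgcs1, Idi1, Sqle, Srebf2 and Insig1) and 1 was higher (Abca1), while Fdft1 and Lss were not called. Over all genes tested, 15.5% were called lower and 19.6% higher. The fall was steepest for Idi1, at 6.99-fold, followed by Hmgcs1, at 3.06-fold, and Insig1, at 2.78-fold, and Abca1 rose 3.60-fold. Every day-21 mouse lay below every day-0 mouse for 5 of the 8 genes, against 26.4% of all genes tested, and above for 1 of them, against 30.7%. Without day 0 replicate 1, and equally without day 21 replicate 3, the genes called lower numbered 3, namely Hmgcs1, Idi1 and Insig1, because Sqle and Srebf2 no longer passed. The plot of the 8 genes by mouse shows these levels.

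**Figure D1:**
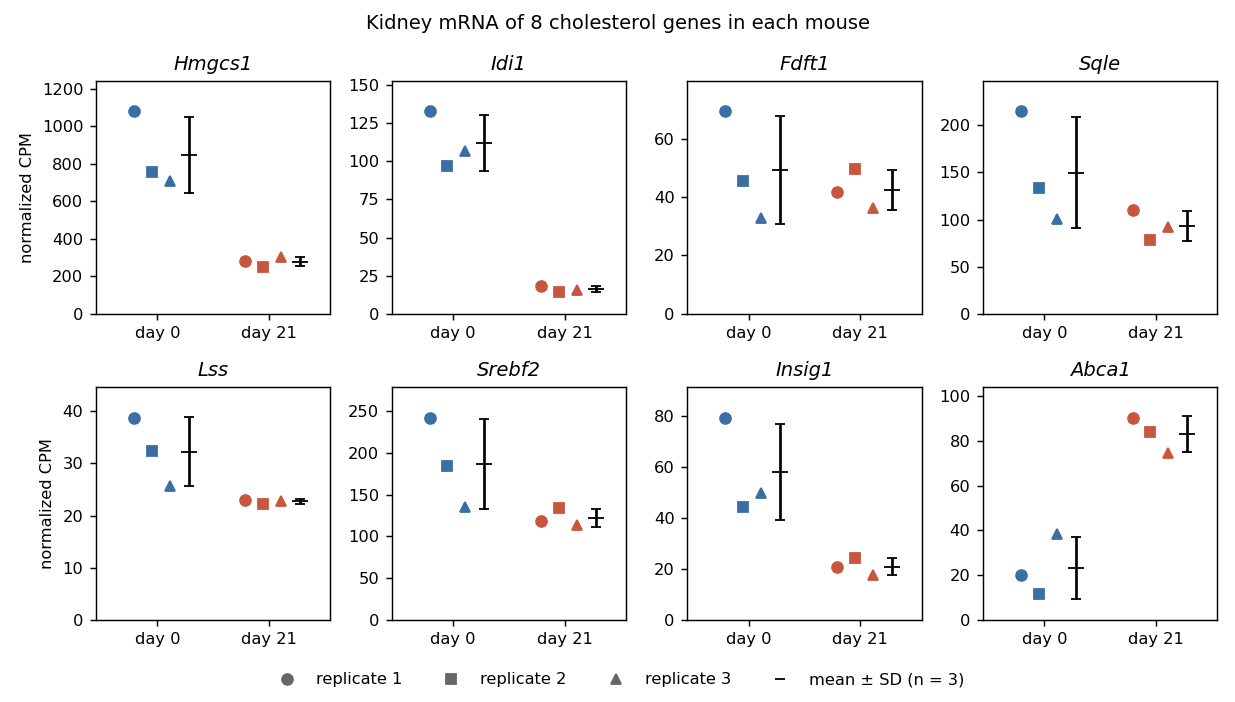
Normalized CPM (vertical axes, each from 0) of the 8 genes in the 3 day-0 mice (blue) and the 3 day-21 mice (red), with a marker shape for each replicate number and the mean ± SD in black. The groups stand apart for Hmgcs1, Idi1, Lss, Srebf2, Insig1 and Abca1, and overlap for Fdft1 and Sqle; for Abca1 the day-21 points from 74.4 to 90.4 CPM all lie above the day-0 points.

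Hmgcs1 (ENSMUSG00000093930.2, chr13:119690379-119708260 on the plus strand of GRCm38) encodes the cytosolic HMG-CoA synthase, an early enzyme of the mevalonate arm. Idi1 (ENSMUSG00000058258.14, chr13:8885501-8892451, plus strand) encodes isopentenyl diphosphate isomerase, which interconverts the isoprenoid building blocks. The promoters of these mevalonate-arm genes are shown because they differ in a motif of the shared regulator. Each runs from 250 bases before to 50 bases after the start of transcription in RefSeq (GRCm38.p6, chr13:119690101-119690400 and chr13:8885356-8885655, both on the plus strand), with capitals for the sterol regulatory element cores TCACNCCAC and TCACCCCA, which overlap, and for the CCAAT box, all searched on both strands (ATTGG is a CCAAT box on the other strand).
Hmgcs1: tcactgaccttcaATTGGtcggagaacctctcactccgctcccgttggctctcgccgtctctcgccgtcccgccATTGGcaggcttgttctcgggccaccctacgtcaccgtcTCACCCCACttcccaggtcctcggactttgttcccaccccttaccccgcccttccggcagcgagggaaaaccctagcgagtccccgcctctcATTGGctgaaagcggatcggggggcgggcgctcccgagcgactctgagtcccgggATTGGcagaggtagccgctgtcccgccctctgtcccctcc
Idi1: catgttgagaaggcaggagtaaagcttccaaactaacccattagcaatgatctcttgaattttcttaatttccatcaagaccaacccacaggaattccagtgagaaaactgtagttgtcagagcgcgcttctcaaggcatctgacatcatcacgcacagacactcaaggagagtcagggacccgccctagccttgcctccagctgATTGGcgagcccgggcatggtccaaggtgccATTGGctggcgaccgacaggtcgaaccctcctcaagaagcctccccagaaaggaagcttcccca
The Hmgcs1 window held a match to both element cores at position -137 from the start and 4 CCAAT boxes. The Idi1 window held 2 CCAAT boxes and neither core. Among all 32851 promoters of the same length, TCACNCCAC was present in 1.24%, TCACCCCA in 1.56% and CCAAT in 37.4%. A match is a description of letters and not of a site in use.

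On day 0, Hmgcs1 was measured at 1080.2, 758 and 708 CPM in the 3 mice, and on day 21 at 281, 251.5 and 300.4 CPM. It was lower in each day-21 mouse than in any day-0 mouse, with means of 849 ± 202 and 278 ± 24.6 CPM (SD, n = 3 each). The log2 fold change was -1.61 ± 0.17 (SE; edgeR adjusted p = 3.6e-05). Idi1 stood at 133, 96.9 and 107 CPM on day 0 and at 18.4, 14.3 and 15.5 CPM on day 21, a log2 fold change of -2.81 ± 0.15 (SE; edgeR adjusted p = 1.3e-06). The Idi1 groups were far apart, the lowest day-0 mouse being several times the highest day-21 mouse, and the gene had the steepest fall among the enzymes of the mevalonate arm. Neither call was lost under any of 15 alternatives, in which the log2 fold change ran from -1.74 to -1.23 for Hmgcs1 and from -2.91 to -2.42 for Idi1.

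Hmgcs1 and Idi1 share exon bases with antisense genes, 12.1% of them with Gm48342 and 9.22% with Gm48574, and without a known strand setting the reads of such partners cannot be told apart. Gm48342, antisense to Hmgcs1, was counted 4187, 3075 and 2717 times in the day-0 group and 1439, 1179 and 1592 times in the day-21 group, and was itself lower by 1.82 ± 0.21 on the log2 scale (log2 fold change -1.82; edgeR adjusted p = 6.3e-05). The ratio of Hmgcs1 to Gm48342 counts, which needs no scaling, was 2.57, 2.99 and 2.53 on day 0 and 2.77, 3.58 and 3.08 on day 21, so the groups overlapped (two-sided exact permutation p = 0.2). Gm48574, antisense to Idi1, had 63, 47 and 53 counts against 18, 14 and 26, few beside the 1325, 1176 and 1038 counts of Idi1 in the day-0 mice. In addition, 30.5% of the 50-base words of the Idi1 transcript occur in other genes, 21.3% in Gm13502.

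The other enzymes of the mevalonate arm ran from a clear fall to no called difference. Of the 10 genes listed 8 were tested, 5 were lower and none was higher, with a median log2 fold change of -1.09. The shares of all genes tested were 15.5% lower and 19.6% higher. Acat2, the acetoacetyl-CoA thiolase of the first step, and Mvd, the mevalonate diphosphate decarboxylase, had the same log2 fold change of -1.09. For Acat2, 45.9% of the 50-base words also lie in Acat3, a gene at 0.52 on the same scale, so its counts may be split between them. The kinases that act before the decarboxylase were not called, with log2 fold changes of -0.41 for Mvk and -0.30 for Pmvk. Ggps1, which makes geranylgeranyl diphosphate for protein prenylation rather than for sterols, was at 0.07 ± 0.13.

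Fdps, the farnesyl diphosphate synthase, could not be judged. Its counts were 1, 6 and 0 in the day-0 group and 6, 9 and 6 in the day-21 group, and 86.4% of its 50-base words occur in other genes, with 77.3% of all its words in Gm43738, which had 0 counts in all mice. Idi2, the second isomerase, had too few counts to be tested.

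Fdft1, Sqle and Lss carry the sterol arm from farnesyl diphosphate to the first ring compound. Fdft1 (ENSMUSG00000021273.10, chr14:63145150-63179578, minus strand) encodes squalene synthase, Sqle (ENSMUSG00000022351.14, chr15:59315077-59331192, plus strand) the squalene epoxidase, and Lss (ENSMUSG00000033105.12, chr10:76531588-76557138, plus strand) the cyclase that closes the rings to lanosterol. Their differences were smaller than those of Hmgcs1 and Idi1. None of the changes exceeded 2-fold, and the largest, that of Sqle, was 1.61-fold.

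Fdft1 was at 69.5, 45.6 and 32.8 CPM on day 0 and at 41.7, 49.6 and 36.1 CPM on day 21. The day-21 mice lay wholly inside the range of the day-0 mice, and the log2 fold change of -0.21 ± 0.23 (edgeR adjusted p = 0.49) had a 95% interval from -0.74 to 0.31, which does not exclude a fall of 1.5-fold. Its sign changed to 0.18 when libraries were scaled by total counts alone and to 0.090 without day 0 replicate 1. Fdft1 shares 18.3% of its exon bases with Ctsb, a cathepsin gene on the opposite strand, and Ctsb had 9174, 9697 and 6096 counts on day 0 against 16823, 18075 and 17368 on day 21, many times the counts of Fdft1. Whether counts of Ctsb entered those of Fdft1 was not tested.

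Sqle was at 215, 133 and 100.4 CPM on day 0 and at 109.6, 77.8 and 91.9 CPM on day 21. It passed the thresholds with a log2 fold change of -0.68 ± 0.24 (edgeR adjusted p = 0.041), yet the groups overlapped, since day 0 replicate 3 lay below day 21 replicate 1. The call was lost under 8 of 15 alternatives, 4 of which kept all 6 mice, and without day 0 replicate 1 the log2 fold change was -0.35 (edgeR adjusted p = 0.116). Lss was at 38.8, 32.4 and 25.7 CPM on day 0 and at 23.0, 22.3 and 22.8 CPM on day 21. The Lss groups stood apart and its test passed (log2 fold change -0.51 ± 0.15; edgeR adjusted p = 0.022), but its 1.42-fold difference stayed under the threshold of 1.5. Without day 0 replicate 3 Lss passed both thresholds, at -0.66, whereas its adjusted p in edgeR lay between 0.0558 and 0.0667 when any of 4 other mice was left out, and scaling by library size alone gave -0.12 (edgeR adjusted p = 0.537).

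After lanosterol most of the falls were larger again, but those of Lbr and Dhcr7 were smaller than that of Sqle. Of 13 genes of the whole sterol arm, Fdft1, Sqle and Lss among them, all were tested, 9 were lower and none was higher. Their median log2 fold change was -0.85, and over all genes tested 15.5% were called lower and 19.6% higher. Cyp51, the lanosterol demethylase, had the steepest fall of the arm, from 411, 378 and 359 CPM to 70.3, 65.7 and 58.1 CPM (log2 fold change -2.56 ± 0.12; edgeR adjusted p = 7.4e-07). The enzymes that follow it in removing the methyl groups at carbon 4 were also lower, Msmo1 by -1.14, Nsdhl by -1.04 and Hsd17b7 by -1.32 on the log2 scale. Msmo1 varied widely on day 0, at 109, 54.4 and 32.4 CPM, whereas its day-21 mice lay between 28.8 and 30.1 CPM. Of the late enzymes, the isomerase Ebp (-0.94), the desaturase Sc5d (-0.85) and the sterol reductase Tm7sf2 (-0.92) were lower. Dhcr7, which makes cholesterol from its 7-dehydro precursor, was at -0.57 and Lbr, a second enzyme with the activity of Tm7sf2, at -0.34, neither of them called.

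Over both arms, 14 of the 21 synthesis enzymes tested were lower and none higher, with a median log2 fold change of -0.92. Over all genes tested the shares were 15.5% lower and 19.6% higher. Apart from the members, 11 of 16 were lower, with a median of -0.93. Scaling by library size alone, which moved the median of all genes tested from 0.03 to 0.42, left 8 of the 21 called lower with a median of -0.53, and none called higher. The falls went together with the drop of 8 of 8 proximal tubule markers given above, whose median log2 fold change was -1.80, and the part of that cell type in them was not tested. The plot of the enzymes by arm gives the fold change of 19 of them with its interval.

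**Figure D2:**
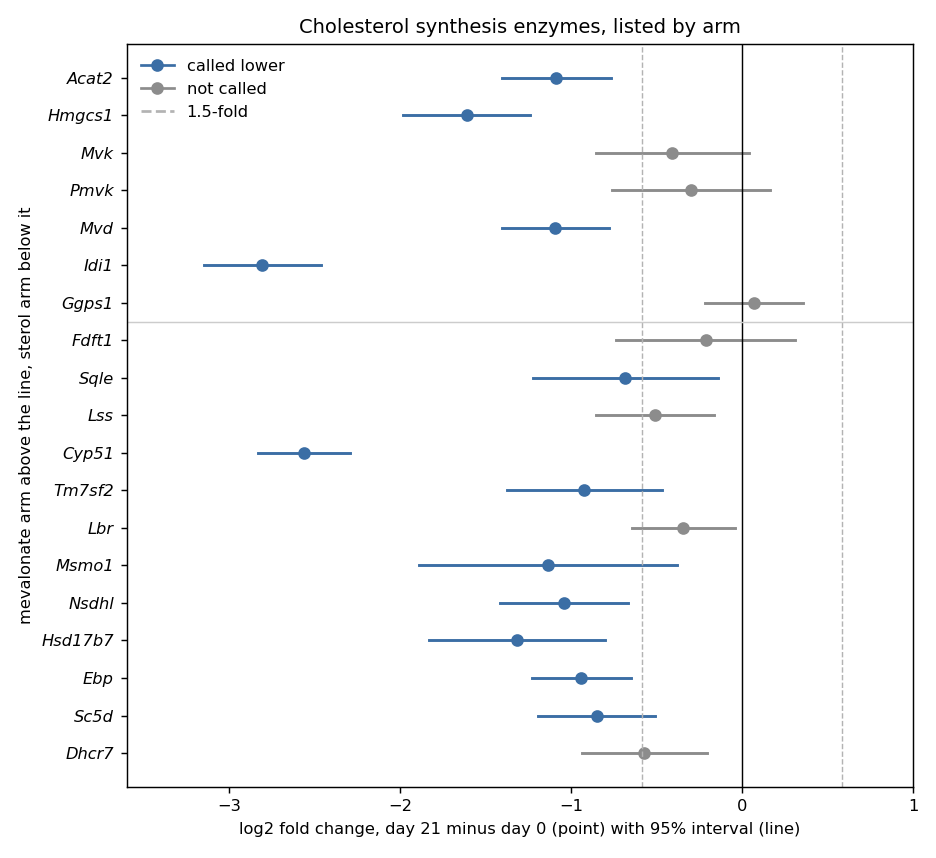
Log2 fold change of day 21 over day 0 (horizontal axis; point) with its 95% interval (line) for 19 of the 21 synthesis enzymes tested, the mevalonate arm above the grey line and the sterol arm below it; blue marks genes called lower, grey those not called, and dashed lines mark 1.5-fold. Idi1 (-2.81) and Cyp51 (-2.56) lie farthest to the left, while the member enzymes Fdft1 (-0.21) and Lss (-0.51) were not called.

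Ratios within a library do not depend on how libraries are scaled. The ratio of Idi1 to Fdft1 counts was 1.91, 2.13 and 3.26 on day 0 and 0.441, 0.289 and 0.429 on day 21, a 6.24-fold drop of the geometric mean (two-sided exact permutation p = 0.1, the smallest that 3 mice against 3 allow). Hmgcs1 to Fdft1 went from 15.5, 16.6 and 21.6 to 6.74, 5.07 and 8.31. Sqle to Fdft1 moved least, from 3.09, 2.93 and 3.06 to 2.63, 1.57 and 2.54, with the groups just apart. All 3 ratios parted the groups, by decreasing margins in the order given. They share the denominator Fdft1, 18.3% of whose exon bases overlap Ctsb, and the part of Ctsb reads in them was not tested.

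Srebf2 (ENSMUSG00000022463.8, chr15:82147181-82205379, plus strand) encodes SREBP-2, the transcription factor of the pathway, and Insig1 (ENSMUSG00000045294.11, chr5:28071363-28078662, plus strand) the endoplasmic reticulum protein that retains SCAP when sterols are abundant. Both are themselves known targets of SREBP-2. The Srebf2 promoter is shown because it held a match to TCACCCCA (RefSeq, GRCm38.p6, chr15:82147019-82147318, plus strand, capitals as above).
Srebf2: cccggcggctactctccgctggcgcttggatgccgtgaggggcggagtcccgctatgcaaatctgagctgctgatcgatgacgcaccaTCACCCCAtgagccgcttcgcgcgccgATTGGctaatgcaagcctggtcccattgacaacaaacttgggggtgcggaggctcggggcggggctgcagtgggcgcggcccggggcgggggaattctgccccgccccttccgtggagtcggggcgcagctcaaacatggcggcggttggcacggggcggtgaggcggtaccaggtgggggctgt
The match began at position -162 and a CCAAT box at -135. Of the 55 genes on the lists below and above with a promoter entry, the short core TCACCCCA was found in Apoe, Hmgcs1 and Srebf2, and the core TCACNCCAC in Hmgcs1 and Stard3. The Insig1 and Lss windows each held 1 CCAAT box and neither core, and Sqle and Fdft1 had no entry. CCAAT was present in 16 of 18 synthesis enzymes with an entry, against 41.1% of all genes with an entry, and GGGCGG, a GC box, in 15 of 18 against 38.2%. All genes with an entry include genes too low in these kidneys to be tested, and a comparison with expressed genes alone was not made.

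Srebf2 was at 243, 185 and 134.8 CPM on day 0 and at 118, 134.4 and 113 CPM on day 21. The groups stood narrowly apart, 134.8 against 134.4 CPM, and the log2 fold change was -0.62 ± 0.19 (edgeR adjusted p = 0.021). The call was lost under 7 of 15 alternatives, among them leaving out day 0 replicate 1, which gave -0.41 (edgeR adjusted p = 0.0526). Insig1 was at 79.5, 44.5 and 50.0 CPM on day 0 and at 20.6, 24.3 and 17.5 CPM on day 21, a log2 fold change of -1.48 ± 0.22 (edgeR adjusted p = 0.00035). Its groups did not overlap and its call held under 15 of 15 alternatives. The ratio of Insig1 to Srebf2 counts dropped from 0.328, 0.241 and 0.371 to 0.174, 0.181 and 0.155, with no overlap (two-sided exact permutation p = 0.1).

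The rest of the sterol-sensing machinery was mostly not called. Of 10 genes tested 4 were lower, Srebf2 and Insig1 among them, and none was higher, against 15.5% and 19.6% of all genes tested. The median log2 fold change was -0.32, or -0.35 relative to the median of all genes tested. Scaling by library size alone turned the median of the list to 0.07 and that of all genes to 0.42, and the difference between them remained -0.35. Scap, the carrier of the SREBPs, was at 103, 128 and 119.9 CPM on day 0 and 93.1, 86.4 and 87.3 CPM on day 21 (log2 fold change -0.39; edgeR adjusted p = 0.017), under the fold threshold. Insig2 was at -0.24 and the proteases Mbtps1 and Mbtps2 at 0.07 and 0.08, none of them called. Srebf1, whose main product drives fatty acid synthesis, was slightly higher in every day-21 mouse, at 0.31 on the log2 scale, below 1.5-fold.

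Genes of cholesterol uptake and transport inside the cell were called both ways: of 12 tested, 3 were higher, 3 lower and 6 not called, with a median of 0.10. These counts lie near the shares of all genes tested, 19.6% higher and 15.5% lower. Stard4, a carrier of cholesterol between membranes, fell from 146, 119 and 79.5 to 56.0, 52.2 and 44.0 CPM (log2 fold change -1.18 ± 0.20; edgeR adjusted p = 0.00081), and Vldlr and the lysosomal lipase Lipa were lower at -0.68 and -0.61. Scarb1, the HDL receptor, rose from 16.2, 16.3 and 21.3 to 37.4, 37.3 and 42.1 CPM (log2 fold change 1.12 ± 0.14; edgeR adjusted p = 0.00014). Lrp1, a receptor of broad ligand range also found on macrophages and fibroblasts, rose by 1.11, and Npc2, a lysosomal cholesterol-binding protein, by 0.60.

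Abca1 (ENSMUSG00000015243.4, chr4:53030787-53159895, minus strand) encodes the transporter that hands cholesterol and phospholipid to apolipoprotein A-I and was the only member to rise. A microRNA links it to Srebf2, since mmu-miR-33-5p is made from an intron of Srebf2 and is known to repress Abca1. The mature miRNA from RefSeq (hairpin at chr15:82198122-82198190, plus strand, GRCm38.p6), with the seed of bases 2 to 8 in capitals, and a 30-base stretch of the Abca1 3′ UTR (chr4:53033782-53033811, minus strand) with matches to the seed's complement CAATGCA in capitals, are shown because they carry that link.
mmu-miR-33-5p: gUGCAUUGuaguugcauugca
Abca1 3′ UTR: attCAATGCAATGCActtCAATGCAacgag
The stretch held 3 matches, of which the leftmost pair overlap by 2 bases, within bases 135 to 156 of a UTR of 3156 bases. Of 20676 UTRs searched, 7.23% held at least 1 match and 15 held 3 or more. The libraries measured mRNA, and the Mir33 gene was listed with 0 counts in every mouse, which says nothing of the mature miRNA.

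The promoter of Abca1 (RefSeq, GRCm38.p6, chr4:53159846-53160145, minus strand) is shown beside those of the synthesis genes. It held neither sterol regulatory element core and no CCAAT box, so that no letter is in capitals, but 2 GC boxes and the E-box CACGTG, the last present in 7.15% of promoters. Of the 18 synthesis enzymes with an entry, each core was found in 1, a GC box in 15 and the E-box in 3. Most of them thus also lacked both cores, whereas a CCAAT box was present in 16 of the 18.
Abca1: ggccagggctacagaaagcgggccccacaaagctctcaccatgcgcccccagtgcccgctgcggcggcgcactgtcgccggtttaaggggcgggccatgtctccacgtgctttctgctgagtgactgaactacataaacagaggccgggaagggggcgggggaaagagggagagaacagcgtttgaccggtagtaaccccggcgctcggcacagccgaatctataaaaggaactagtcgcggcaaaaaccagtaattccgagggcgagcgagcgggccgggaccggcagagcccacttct

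Abca1 was at 19.9, 11.4 and 38.2 CPM on day 0 and at 90.4, 83.9 and 74.4 CPM on day 21. All day-21 mice lay above all day-0 mice, the day-0 mice being more spread than the day-21 mice, with means of 23.2 ± 13.7 and 82.9 ± 8.08 CPM (SD, n = 3 each). The log2 fold change was 1.85 ± 0.33 (edgeR adjusted p = 0.0012), a call that held under 15 of 15 alternatives. It ran from 1.51 without day 0 replicate 2 to 2.40 without day 0 replicate 3, the mouse with the highest Abca1 of its group. That mouse also stood apart in adipocyte markers, whose sum was 0.401, 8.0 and 44.9 CPM in the day-0 mice and 0.537 to 1.70 CPM in the day-21 mice. Markers of the adrenal cortex, another tissue rich in sterol synthesis, were near absent, with 3 of 8 genes at 0 and 5 of 8 at or under 3 counts in all mice and a sum of 2.78 to 4.41 CPM on day 0 and 2.97 to 4.29 CPM on day 21.

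Efflux and LXR genes other than Abca1 went both ways. Of 5 genes tested 3 were higher (Abca1, Abcg1 and Apoe), 1 was lower and 1 was not called, against 19.6% higher and 15.5% lower over all genes tested. Abcg1, the transporter that passes cholesterol to HDL, rose from 4.51, 7.58 and 12.9 to 20.1, 24.6 and 20.0 CPM (log2 fold change 1.38 ± 0.30; edgeR adjusted p = 0.0036). Apoe, the lipoprotein acceptor of cholesterol that macrophages make in abundance, rose from 431, 301 and 248 to 887, 1756 and 1278 CPM (log2 fold change 2.00 ± 0.26; edgeR adjusted p = 0.00016). Nr1h3, the gene of the oxysterol receptor LXR-alpha, was by contrast lower, at 47.8, 60.2 and 60.8 CPM on day 0 and 36.8, 31.0 and 30.3 CPM on day 21 (log2 fold change -0.78 ± 0.13; edgeR adjusted p = 0.00094), and Nr1h2, the gene of LXR-beta, was at 0.02. The rise of Abca1, Abcg1 and Apoe went together with the macrophage and fibroblast markers given above, and the part of those cells in it was not tested.

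Enzymes that modify cholesterol were also called both ways. Of 6 tested 1 was higher, 3 were lower and 2 were not called, against 19.6% higher and 15.5% lower over all genes tested. Cyp7b1, an oxysterol hydroxylase, had the steepest fall on any of the pathway lists, from 167, 318 and 282 to 27.6, 23.3 and 28.4 CPM (log2 fold change -3.27 ± 0.23; edgeR adjusted p = 3.5e-06). Ch25h, which makes 25-hydroxycholesterol and is induced in macrophages by interferon, rose from 5.51, 2.72 and 3.61 to 9.68, 7.46 and 12.1 CPM (log2 fold change 1.31 ± 0.29; edgeR adjusted p = 0.0046). Cyp27a1, the sterol 27-hydroxylase, and Nceh1, a cholesteryl ester hydrolase, were lower at -0.63 and -0.68, and Soat1, which esterifies cholesterol, was at 0.44, under 1.5-fold. Of 12 fatty acid synthesis genes tested 7 were lower and none was higher, with a median of -0.65, against the same 15.5% lower and 19.6% higher. Me1, the malic enzyme that supplies NADPH, fell the most, from 502, 718 and 739 to 219.8, 163 and 204 CPM (log2 fold change -1.74 ± 0.17; edgeR adjusted p = 2.8e-05), followed by the acetyl-CoA synthetase Acss2 at -1.63, whereas the desaturase Scd1 was at -0.01 ± 0.12.

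**Figure D3:**
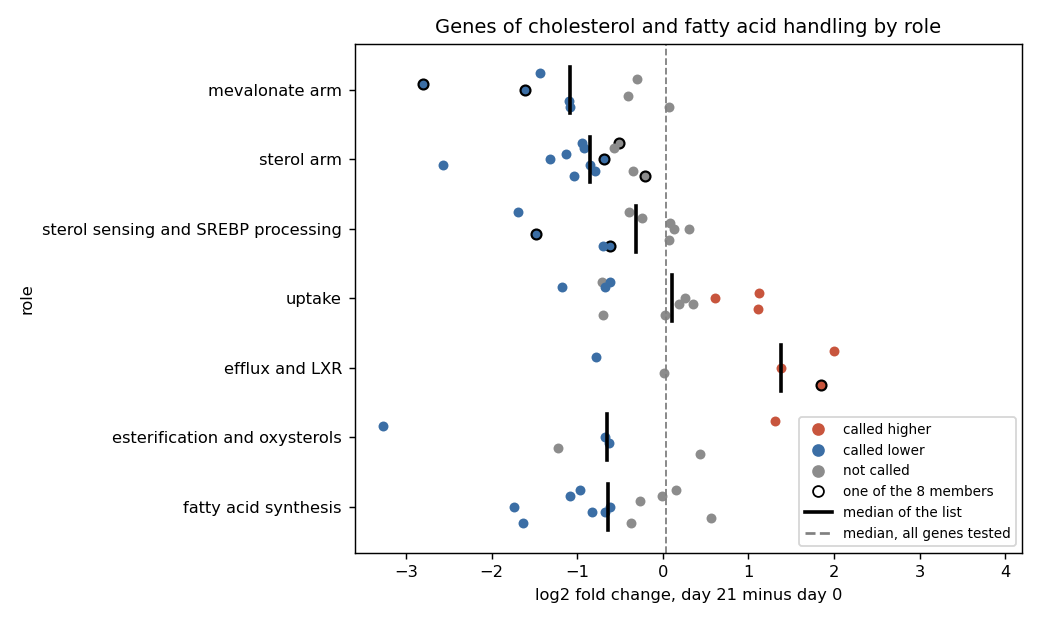
Log2 fold change of day 21 over day 0 (horizontal axis) for every tested gene of 7 lists (rows), with red for genes called higher, blue for genes called lower, grey for genes not called and a black rim for the 8 members. Black bars mark list medians, from -1.09 for the mevalonate arm to 1.38 for efflux and LXR, and the dashed line marks the median of all genes tested at 0.03.

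Levels between genes were compared per length of exon, as CPM per kb of the merged exons of all annotated transcripts of a gene. This length can exceed that of the longest protein-coding transcript, at 10787 against 4667 bases for Lss and 5546 against 2758 for Sqle. The order below holds for the merged length, and no other length was tried. On this scale Hmgcs1 stood above the other members on day 0 (185 ± 43.9 CPM per kb) with no overlap. Idi1 (32.0), Sqle (27.0), Srebf2 (26.1), Insig1 (18.8) and Fdft1 (11.7) followed, each overlapping its neighbour in that order, and Lss (2.99) and Abca1 (2.24) were lowest and overlapped each other. On day 21 Hmgcs1 was still highest, at 60.5 ± 5.36 CPM per kb, and Srebf2 (17.0) and Sqle (16.8) came next and overlapped. Idi1 had moved from the second place to the seventh, at 4.58 CPM per kb, below Fdft1 (10.05), Abca1 (8.0) and Insig1 (6.73) and above Lss (2.11) only. The ratio of Abca1 to Srebf2 counts, export against the regulator of synthesis, was 0.0823, 0.0616 and 0.284 on day 0 and 0.764, 0.625 and 0.657 on day 21, the geometric means of which differ 6.02-fold, a figure that includes the rise of one gene and the fall of the other.

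The day-0 mice differed among themselves in a way that most synthesis genes shared. Replicate 1 was the highest day-0 mouse for 7 of the 8 members, all but Abca1, where it is so for 32.5% of all genes tested. Replicate 3 was the lowest for 5 of 8 members and for 13 of 13 genes of the sterol arm, against 33.4% of all genes tested. For these sterol-arm genes replicate 1 was the highest in 11 of 13. Replicate numbers are labels of the mice, and genes of 1 mouse share its library and are not independent observations. The SD of log2 levels was larger on day 0 than on day 21 in 8 of 8 members, as it was in 69.2% of all genes tested. The map of levels by mouse shows this gradient on day 0 and the closeness of the day-21 mice.

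**Figure D4:**
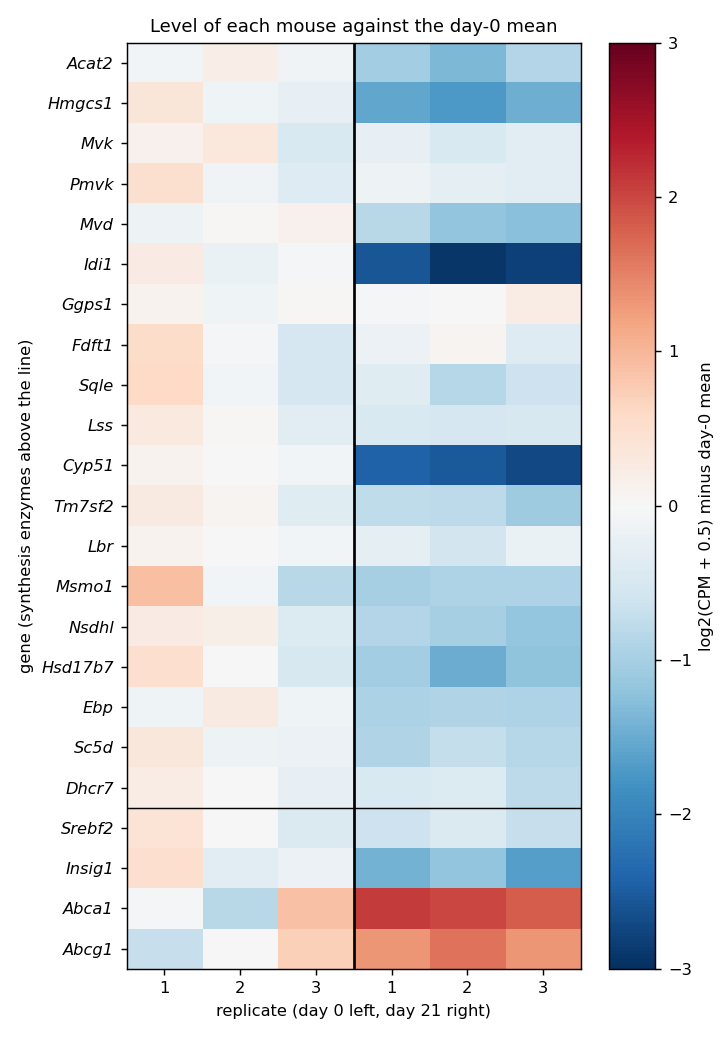
Log2(CPM + 0.5) of each mouse minus the day-0 mean of the gene (color, from blue for lower to red for higher) for 19 synthesis enzymes (above the line) and for Srebf2, Insig1, Abca1 and Abcg1 (below it), with the 3 day-0 mice on the left and the 3 day-21 mice on the right. Replicate 3 is the lowest day-0 mouse in 16 of the 19 enzymes, Idi1 and Cyp51 are the darkest blue on day 21, and Abca1 and Abcg1 are red there.

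Profiles over the 6 mice were compared with the mean of the 5 member enzymes by root mean square difference of centred log2(CPM + 0.5). The nearest were Mat2a (0.0793), Slc7a7 (0.106), Foxo3 (0.108), Trak2 (0.108) and Ildr2 (0.111), none of them a sterol enzyme. The measure counts the size of a change as well as its shape. Cyp51, with a log2 fold change of -2.56, thus ranked 9898, behind Ggps1, at 0.07, which ranked 7532. Mat2a makes S-adenosylmethionine and Slc7a7 is a subunit of a transporter of cationic amino acids in the proximal tubule. Of the listed genes of cholesterol handling, the nearest were Stard4 at rank 15, Hsd17b7 at rank 17 and Nsdhl at rank 37 of 16587 genes. The profile has 6 points that share library depth and group, so likeness is given as a description without a test.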

How the data were processed

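Total RNA of kidneys from 6 mice, 3 per group, was sequenced by the authors as paired-end reads of 150 bases. The authors deposited raw counts for each gene, not normalized, in 1 column per mouse. The submitters' processing notes name TopHat and mm10, and the counting program and its strand setting are not given in the sources used here. Identifiers were those of GENCODE M21, and no column was left without a sample.

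Counts were filtered with filterByExpr (minimum count 10, minimum total 15), scaled by TMM and tested with edgeR 4.0.16 (quasi-likelihood, no block) in R 4.3.3, with Benjamini-Hochberg adjustment over every gene tested. Calls needed an adjusted p under 0.05 together with a fold change above 1.5, thresholds taken from the study. CPM values were computed on TMM-scaled libraries. Ratios of single genes were compared by a two-sided exact permutation test, which cannot go below p = 0.1 with 3 against 3. Floors of 3 counts cover counting error only. Nothing names a batch. The edgeR p-values set the difference of the groups against the spread between mice, estimated with information shared over genes.

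The 8 members and the gene lists were chosen with earlier results of these data known. Beside the members, Scap, Insig2, Srebf1, Nr1h3, Abcg1 and Scarb1 were named by rule, as were the called genes with the largest rise and fall of each list (mean of at least 50 counts) and the 5 nearest profiles. A few genes of the lists are counted but not reported here by name. Other genes of the lists were named after their values were seen.

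The edgeR, limma and DESeq2 steps were tested on simulated data. Changes of 3-fold were put into 200 genes of the comparison of day 21 with day 0, out of 16265 in all. Of these 200, edgeR recovered 189, limma 188 and DESeq2 192, and they called 11, 9 and 20 of the other genes. The changed genes had a mean of at least 50 counts and went up and down equally. Changes near 1.5-fold were not simulated. Alternatives were RLE, upper-quartile or library-size scaling, totals without mitochondrially encoded genes, no filter or a mean of at least 50 counts, DESeq2 1.42.0, limma-voom (limma 3.58.1), a replicate block, each mouse left out, and other thresholds. Sequences were read from RefSeq tables and searched in Python 3.11.15. Sharing of sequence was measured as exon bases inside exons of another gene and as the share of 50-base words, from the longest transcript, found elsewhere.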

Additional observations from a re-analysis of the deposited data

How the results depend on the processing

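The calls of Hmgcs1, Idi1, Insig1 and Abca1 held under each of 15 alternatives. The members called lower, 5 as reported, numbered 3 under upper-quartile scaling, under scaling by library size alone, with limma-voom and when the thresholds were set to 0.01 and 2-fold, and 3 to 6 when 1 mouse was left out. Synthesis enzymes called lower, 14 as reported, numbered 8 under library size alone and 8 at the stricter threshold, and 12 to 17 when 1 mouse was left out. Library size alone shifts all genes upward by construction of the scaling (median log2 fold change 0.42 in place of 0.03), and the causes of the other differences were not tested. Fdft1, not called in any case, changed sign to 0.18 under library size alone and to 0.090 without day 0 replicate 1, its range with 1 mouse left out being -0.45 to 0.090. Mice of different days are different animals. Correlations of their deviations from the group means were -0.0297, 0.177 and 0.106 for same-numbered mice and between -0.203 and 0.133 for the other pairs. Deviations from a mean of 3 mice depend on each other, so these values cannot decide whether the numbers pair mice. With a replicate block, members called lower numbered 4 in place of 5, since Srebf2, at -0.58, no longer reached 1.5-fold, and synthesis enzymes called lower stayed at 14. Over the fold changes of the members, 102 of 120 recomputed values kept their direction and their side of the thresholds, 15 no longer passed, 1 newly passed and 2 changed sign.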
